A study of Mus musculus with 10 samples.

Results

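MAL overexpression was examined in 10T1/2 cells, a mouse embryonic mesenchymal line labelled as embryonic fibroblast that can form smooth muscle and fat cells in culture. The 4 arrays of this line, of 10 in the whole series, were chosen by their sample titles. They were 1 array of cells with MAL overexpression, 1 of cells with MAL overexpression and Med23 knockdown, 1 of control cells, whose treatment is labelled none, and 1 of cells with Med23 knockdown alone. The 2 arrays with MAL were each set against the array of the matching knockdown state, which gave 2 pairs: MAL minus control, and MAL plus knockdown minus knockdown. The other 6 arrays, of Med23 knockout and wild-type mouse embryonic fibroblasts (MEFs) at 3 serum times each, entered only where stated. All 10T1/2 cells were grown in DMEM with fetal bovine serum. Each condition had 1 array and therefore no replicate, and the sources used here do not say how MAL was delivered, how Med23 was depleted or how long the cells were kept afterwards. The repeat of the MAL contrast came from cells that also differed in Med23. The series as a whole asks how Med23, a subunit of Mediator, the large complex between DNA-bound activators and RNA polymerase II, bears on smooth muscle and fat cell differentiation.

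MAL, the product of Mrtfa (also called myocardin-related transcription factor A), is a coactivator held in the cytoplasm by monomeric actin. When actin polymerises, MAL enters the nucleus, joins serum response factor (SRF) on a short DNA element named the CArG box, and switches on genes of actin filaments, adhesion and smooth muscle contraction. Ternary complex factors such as Elk1 use the same surface of SRF to drive immediate-early genes, and MAL is known to restrain fat cell formation.

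Levels are log2 expression values, so a difference of 1 is a doubling. The 4 array medians lay between 3.64 and 3.70, and the arrays correlated across probe sets with r between 0.955 and 0.984. Testing was limited to genes that exceeded 3.67, the overall probe set median, on at least 1 of the 4 arrays, which left 12440 of 18193 named genes. Poly-A control transcripts had a median of 7.49 on the MAL array and 8.24 on the control array, and 6.79 with MAL plus knockdown and 7.53 with the knockdown alone. Of their 27 probe sets, 23 were lower with MAL in both pairs, and their part in the results was not tested.

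The transcript of Med23 had a log2 level of 5.67 with MAL and 5.45 in the control, and of 3.94 with MAL plus knockdown and 4.24 with the knockdown alone. Both knockdown arrays were therefore below both arrays without it. Mrtfa, which encodes MAL, measured 8.33 with MAL and 8.65 in the control, and 8.44 with MAL plus knockdown and 8.54 with the knockdown alone. The single named Mrtfa probe set was thus not higher on either array labelled MAL overexpression. The sources used here do not say if its probes match the overexpressed construct, and it is therefore no check of the label. Srf was at 8.11 with MAL and 8.08 in the control, and at 7.77 with MAL plus knockdown and 7.95 with the knockdown alone, and did not pass the test (limma adjusted p = 0.835).

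The few genes called higher with MAL were genes of smooth muscle and of striated muscle, and 1 of a cell junction. A limma model with MAL and the knockdown as terms, fitted over all tested genes, called 6 genes higher (0.0482% of 12440) and 2 lower (0.0161%) at a Benjamini-Hochberg adjusted p under 0.05, 0.0643% in all. The 6 were Actg2, Cnn1, Tagln, Acta1, Asb2 and Pkp2, and the 2 were Slpi and Adh1. With 1 residual degree of freedom the threshold fell within a dense run of genes: 716 genes were higher and 645 lower at an adjusted p under 0.1. The number called depended strongly on the settings. No gene was called, and all 8 calls were lost, after median centring (limma, lowest adjusted p = 0.125; 3321 genes at an unadjusted p under 0.05), without the filter on low values (0.119; 3826) and without the knockdown term (0.0708; 1035). After quantile normalisation of the same 4 arrays the model called 1120 genes higher (9.0%) and 913 lower (7.34%), so that higher genes made up 55.1% of the calls, against 75.0% in the fit of the values as deposited.

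CArG boxes (10 letters, read the same way on both strands) stood in the promoter window of 2 of the 3 genes called higher that have one in the RefSeq promoter table, which covers 250 bases before to 50 bases after each gene's start. The next lines show these 2 boxes, those of Myl9 and Stbd1, high with MAL but not called, that of Selenbp1, low with MAL and not called, and the 2 boxes of Srf itself, in up to 30 bases of RefSeq sequence of build GRCm38.p6, written 5′ to 3′ along the gene's strand with the box in capitals.
Asb2, chr12:103356046-103356075, minus strand: agaaacatacCCATATATGGgctccatgtc
Acta1, chr8:123894829-123894858, minus strand: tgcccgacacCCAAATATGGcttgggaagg
Myl9, chr2:156775293-156775322, plus strand: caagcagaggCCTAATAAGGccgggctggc
Stbd1, chr5:92603005-92603034, plus strand: cggccaagaaCCTTAAAAGGatggggcggg
Selenbp1, chr3:94932833-94932861, plus strand: cccaggcatCCAAAAATGGctcagatgtt
Srf, distal box, chr17:46556225-46556254, minus strand: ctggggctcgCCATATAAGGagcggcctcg
Srf, proximal box, chr17:46556205-46556234, minus strand: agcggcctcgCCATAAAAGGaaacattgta
All tested genes with a promoter in the table held a box in 1.64% of cases (164 of 9971). Genes higher by at least 1 in both pairs held one in 6.25% (12 of 192), and genes lower by at least 1 in both pairs in 1.04% (2 of 192). Known actin and MAL targets held one in 21.4% (6 of 28), smooth muscle contractile genes in 11.1% (2 of 18), and S phase and mitosis genes in 0.0% (0 of 26). Of the 12 named genes in each direction, 8 had a promoter in the table, and 4 of 8 higher and 1 of 8 lower ones held a box. Egr2, an immediate-early gene with a box in each of 2 listed promoters, differed by -0.50 and -1.08. A match describes these letters only, and the presence of boxes in Srf stood beside a level that did not pass the test.

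The called genes of smooth muscle contraction were Actg2, Cnn1 and Tagln. Actg2, the gamma smooth muscle actin of gut and bladder, had a log2 level of 11.48 with MAL and 6.94 in the control, and of 12.30 with MAL plus knockdown and 7.95 with the knockdown alone. It rose by 4.44 ± 0.19 (moderated SE, limma adjusted p = 0.0259), a 21.8-fold difference. The SE given here and below is that of limma, which draws on the spread of all tested genes besides the gene's 2 pairs. Both MAL arrays lay more than 3 units above both arrays without MAL. Cnn1, calponin, which binds actin and slows myosin in smooth muscle, measured 7.96 with MAL and 3.83 in the control, and 9.61 with MAL plus knockdown and 4.89 with the knockdown alone. It rose by 4.42 ± 0.23 (adjusted p = 0.0265), 21.5-fold. Tagln, the actin-bundling protein transgelin, stood at 10.12 with MAL and 6.64 in the control, and at 11.17 with MAL plus knockdown and 7.78 with the knockdown alone. Its rise was 3.44 ± 0.18 (adjusted p = 0.0265), 10.8-fold. In Actg2, Cnn1 and Tagln alike the knockdown array was higher than the control array.

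Acta1, the actin of skeletal muscle, had 8.78 with MAL and 5.78 in the control, and 9.72 with MAL plus knockdown and 6.24 with the knockdown alone. It rose by 3.24 ± 0.21 (adjusted p = 0.0487), 9.45-fold. The coding sequences of the actin genes are nearly identical, and whether the probes of Acta1 or Actg2 also bind other actin transcripts was not tested. Asb2, part of a ubiquitin ligase that degrades filamins in muscle and blood cells, had 7.41 with MAL and 3.56 in the control, and 7.62 with MAL plus knockdown and 3.55 with the knockdown alone. It rose at least 14.4-fold (3.96 ± 0.19, adjusted p = 0.0259), since both arrays without MAL were below their array medians. Pkp2, plakophilin 2, a plaque protein of desmosomes, had 7.57 with MAL and 2.94 in the control, and 7.48 with MAL plus knockdown and 3.27 with the knockdown alone. It rose at least 14.5-fold (4.42 ± 0.20, adjusted p = 0.0259). A further Pkp2 probe set differed by 3.79 and 3.93 in the 2 pairs, and another by 0.74 and -0.16.

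Of the genes that fell, Slpi encodes a secreted inhibitor of neutrophil proteases. Slpi had 8.24 with MAL and 11.80 in the control, and 7.25 with MAL plus knockdown and 10.47 with the knockdown alone. It fell by 3.39 on the log2 scale (SE 0.20, limma adjusted p = 0.0339), to 10.5-fold lower levels. Adh1, an alcohol dehydrogenase that also oxidises retinol, had 5.85 with MAL and 8.89 in the control, and 5.88 with MAL plus knockdown and 8.63 with the knockdown alone. It was 7.44-fold lower (SE 0.19 on the log2 scale, adjusted p = 0.0487). In both genes the 2 MAL arrays lay below both arrays without MAL.

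**Figure D1:**
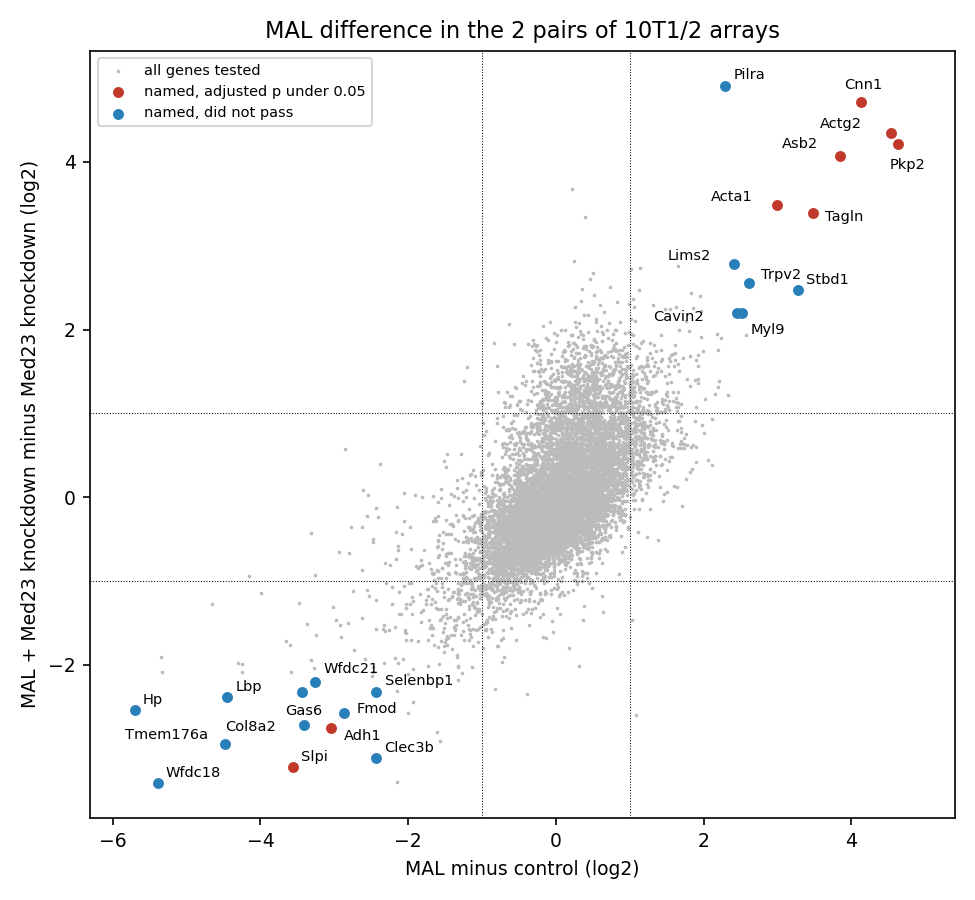
Each point is 1 of 12440 tested genes, with the log2 difference of MAL minus control on the x axis and of MAL plus Med23 knockdown minus Med23 knockdown on the y axis; red points passed the limma test and blue points are the other named genes. The 6 genes called higher sit at the upper right, from 3.0 to 4.63 on the x axis, and Slpi and Adh1 at the lower left.

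The next genes by size did not pass the test, with adjusted p between 0.0519 and 0.0728, and are given as values. Myl9, the regulatory light chain of smooth muscle myosin, had 11.73 with MAL and 9.21 in the control, and 12.65 with MAL plus knockdown and 10.45 with the knockdown alone. Lims2, an adhesion adaptor also called PINCH2, was higher by 2.41 and 2.78 in the 2 pairs. Cavin2, which shapes the membrane pits called caveolae, was higher by 2.45 and 2.20, and its 2 further probe sets by 2.42 and 2.01 and by 2.09 and 1.54. Stbd1, which tethers glycogen to membranes, was higher by 3.28 and 2.47, and Trpv2, a cation channel, by 2.61 and 2.55. The receptor gene Pilra was higher by 2.29 and 4.91, an uneven pair, from arrays without MAL that were both below their medians.

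The named genes on the lower side that did not pass the test encode secreted, membrane and intracellular proteins. Wfdc18, a small secreted antiprotease-like protein, had 6.81 with MAL and 12.20 in the control, and 6.90 with MAL plus knockdown and 10.31 with the knockdown alone (adjusted p = 0.0651). Hp, the haemoglobin-binding plasma protein haptoglobin, was lower (-5.70 and -2.54, as log2 differences in the 2 pairs). Lbp, which binds bacterial lipopolysaccharide, was lower (-4.45 and -2.39), and Wfdc21 was lower (-3.26 and -2.20). Tmem176a, a membrane protein, was lower (-4.48 and -2.94), and its 2 further probe sets also differed by -3.78 and -2.72 and by -2.19 and -2.71. Gas6, a ligand of the receptor Axl, was lower (-3.44 and -2.33). Of matrix genes, the collagen Col8a2 was lower (-3.41 and -2.72), and Clec3b (tetranectin) was lower (-2.44 and -3.11). Fmod, the collagen-binding proteoglycan fibromodulin, had 3.13 with MAL and 6.0 in the control, and 2.75 with MAL plus knockdown and 5.33 with the knockdown alone. Both MAL arrays were below their medians, so the fold is at least 3.99. That probe set is of the kind that can bind unrelated transcripts, and its 5 other probe sets differed less. The selenium-binding Selenbp1 was lower (-2.43 and -2.32). Across these genes the first pair gave the larger difference in all but Clec3b, on the brightest probe sets.

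**Figure D2:**
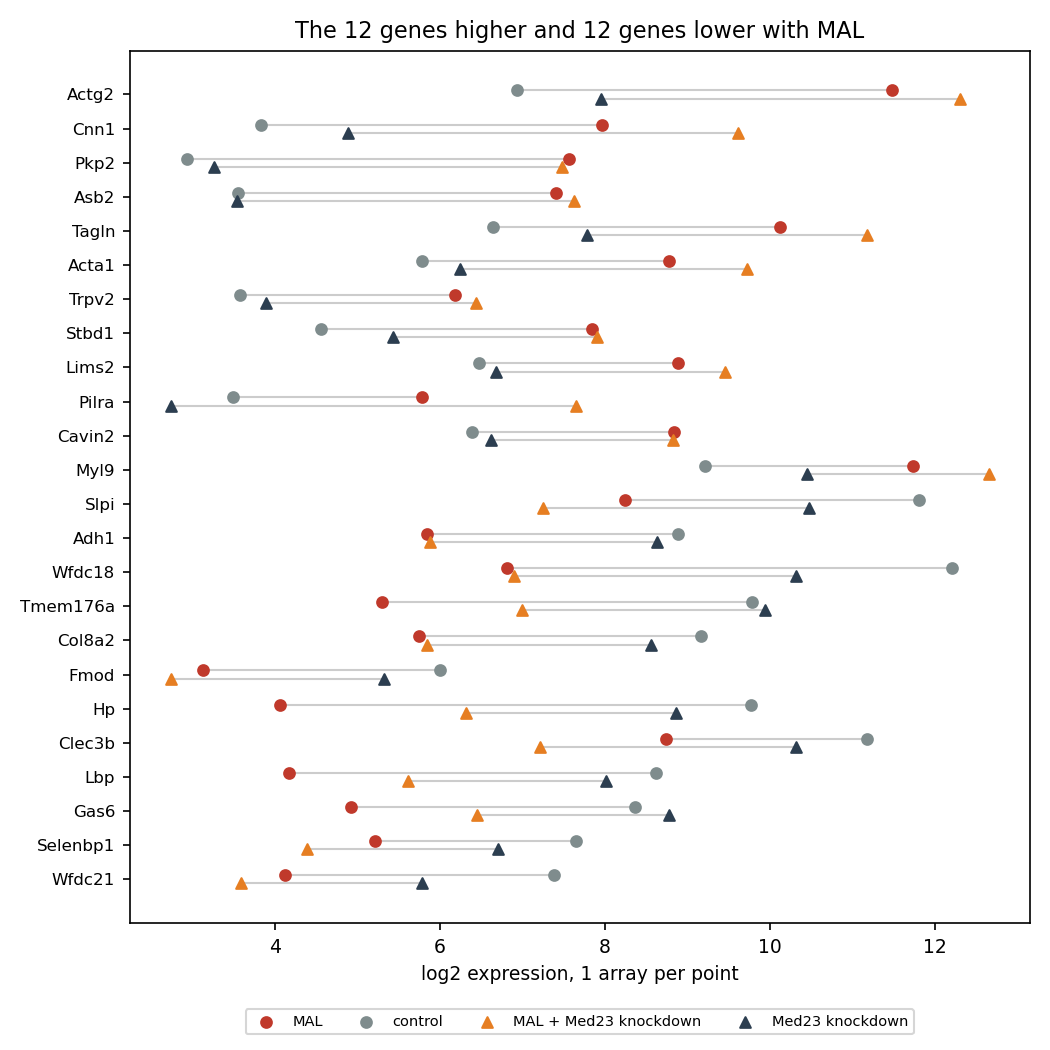
Log2 expression of the 24 named genes, 1 array per point, with MAL and control joined by a line and MAL plus Med23 knockdown and Med23 knockdown joined by another. Each gene's 2 MAL arrays lie on one side of its 2 arrays without MAL, as in Actg2, at 11.48 and 12.30 with MAL.

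Counted by pairs without a test, 230 genes were higher (1.85%) and 241 lower (1.94%) by at least 1 in both pairs. Genes with 1 sign in both pairs were 3889 higher (31.3%) and 4873 lower (39.2%), together 70.4%. The median difference over all genes was 0.01 in the first pair and -0.11 in the second. A test of the difference of the MAL effect between knockdown states, with the spread taken from the MEF arrays, called no gene (limma, lowest adjusted p = 0.146, 1384 genes at an unadjusted p under 0.05). The share called was 0.0%. That the MAL effect is equal with and without Med23 is not shown by this.

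The smooth muscle contractile genes were mostly higher with MAL. Of 22 tested members, 3 rose by the test (Actg2, Cnn1 and Tagln), 0 fell, 8 were higher by at least 1 in both pairs, and 18 were higher and 1 lower in both pairs. Their median coefficient was 0.78, beside -0.03 over all genes tested. After quantile normalisation 13 were called higher and 1 lower, where 9.0% of all genes were called higher and 7.34% lower. Over all genes 1.85% were higher by at least 1 in both pairs, and 31.3% were higher and 39.2% lower in both. The 8 included Lmod1, an actin filament nucleator of smooth muscle, which was higher by 2.23 and 1.90, and Kcnmb1, the accessory subunit of the large calcium-activated potassium channel, higher by 1.14 and 2.73. Tpm2, a tropomyosin that winds along actin filaments, was higher by 1.34 and 1.11 on its brightest probe set, and by -0.06 and 0.21 on another. Pdlim7, a scaffold of actin fibres, was higher by 1.25 and 1.39.

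Other members of the contractile list differed less or unevenly, and none of those named here passed the test. Acta2, the alpha smooth muscle actin, had 13.90 with MAL and 13.44 in the control, and 13.97 with MAL plus knockdown and 13.51 with the knockdown alone. These values lie near the top of the measured range of 1.85 to 14.25, and 2 dimmer Acta2 probe sets gave 1.16 and 0.94, and 1.35 and 0.77, in the pairs. Mylk, myosin light chain kinase, had 5.23 with MAL and 6.07 in the control, but 9.64 with MAL plus knockdown and 7.80 with the knockdown alone, so the 2 pairs had opposite signs. Myh11, the smooth muscle myosin heavy chain, stayed near the array median on all 4 arrays, between 3.55 and 3.88. Smtn (smoothelin) was the member lower in both pairs (-0.98 and -0.64).

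**Figure D3:**
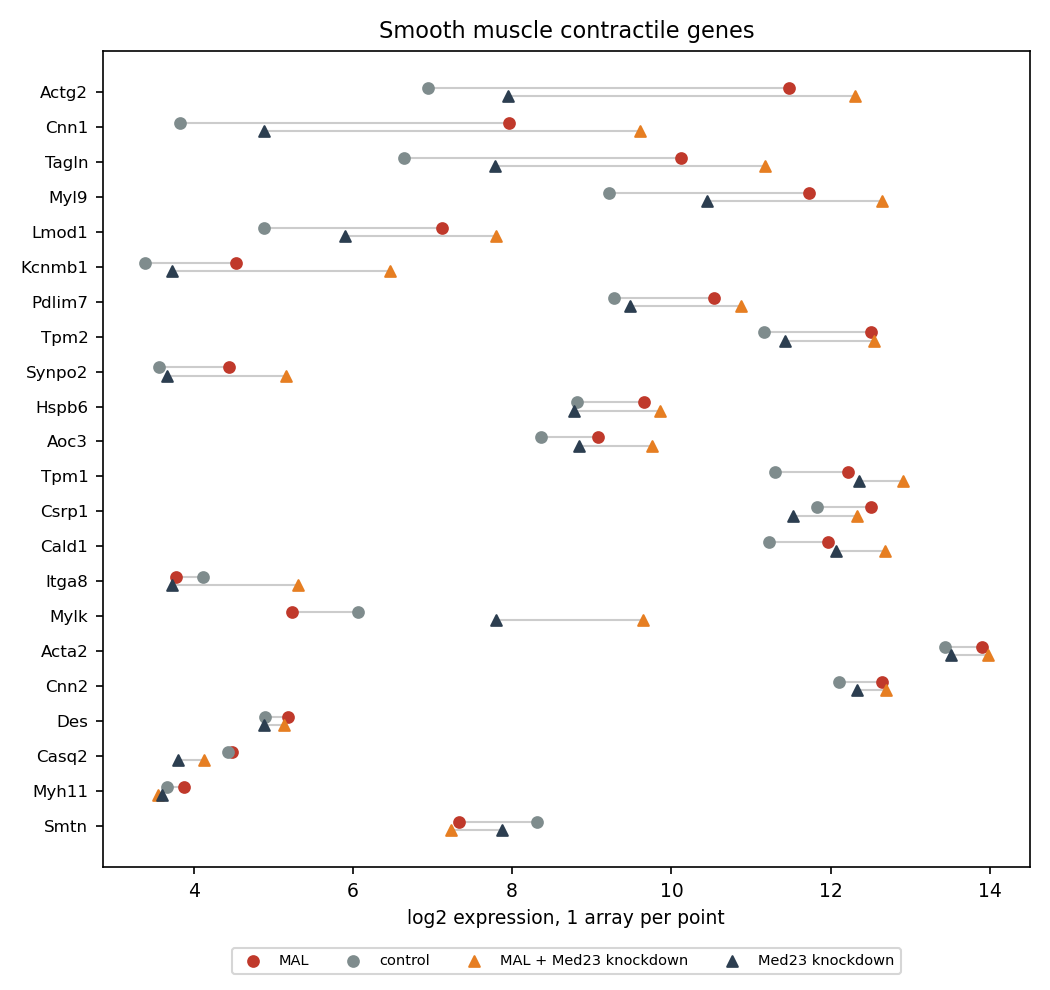
Log2 expression of the 22 tested smooth muscle contractile genes, 1 array per point, with MAL and control joined by a line and MAL plus Med23 knockdown and Med23 knockdown joined by another. Actg2, Cnn1 and Tagln show the longest lines, while Acta2 lies at 13.90 and 13.97 with MAL and at 13.44 and 13.51 without.

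The cytoskeletal targets of actin, MAL and SRF differed by smaller amounts. Of 32 tested, 0 were called in either direction, 3 were higher by at least 1 in both pairs, and 24 were higher and 3 lower in both, with a median of 0.31. After quantile normalisation 9 were called higher and 0 lower, where 9.0% of all genes were called higher and 7.34% lower. The 3 were Fhl1, a LIM-domain protein of muscle (2.57 and 1.93), Tpm4, a tropomyosin (2.16 and 1.23), and Itgb1, the integrin beta-1 chain (1.22 and 1.25). Vcl, which encodes vinculin, was higher by 1.27 and 0.75. The abundant Actb and Actg1 differed by 0.14 and 0.17 and by 0.13 and 0.14. Zyx, which encodes zyxin, differed by 0.05 and 0.25. Over all genes 1.85% were higher by at least 1 in both pairs, and 31.3% were higher and 39.2% lower in both. The difference of the list from all genes was not tested.

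Adhesion genes held further large differences without a call. Over all genes 1.85% were higher and 1.94% lower by at least 1 in both pairs. Of 19 tested focal adhesion and integrin genes, 4 were higher by at least 1 in both pairs and 0 lower, with a median of 0.18. Those were Itga1 (1.67 and 1.99) and Itga6 (1.97 and 1.91), which bind collagen and laminin, with Itgb1 and Lims1 (1.42 and 1.93). Among 20 CCN and YAP-responsive genes, with a median of 0.17, Ccn4 was higher by 1.66 and 1.25 and Ccn5 lower (-1.51 and -1.85), while Ankrd1 differed by 0.25 and 2.82. The 8 tested genes of SRF and its cofactors had a median of -0.03 and none reached 1 in both pairs.

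The list of immediate-early genes, which was not limited to ternary complex targets of SRF, had no call. Of 28 tested, 6 were higher and 15 lower in both pairs, and the median was -0.23. Over all genes 31.3% were higher and 39.2% lower in both pairs, so lower was the commoner sign there too, and the difference from all genes was not tested. After quantile normalisation 2 were called higher and 7 lower. Fos, a subunit of the factor AP-1, had 6.21 with MAL and 7.45 in the control, and 5.21 with MAL plus knockdown and 6.6 with the knockdown alone, and was the 1 member lower by at least 1 in both. Egr1, a zinc finger factor induced by growth signals, was lower (-0.80 and -1.32), and Klf2 was lower (-0.87 and -1.45). Klf10 was higher by 1.70 and 0.67. None of these passed the test.

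Genes of the adipocyte list were more often lower than higher, again without a call. Of 19 tested adipocyte genes, 0 were called, 4 were lower and 0 higher by at least 1 in both pairs. In both pairs 12 were lower and 3 higher, with a median of -0.46. Over all genes 39.2% were lower and 31.3% higher in both pairs, and 1.94% lower by at least 1. After quantile normalisation 8 were called lower and 0 higher, where 7.34% of all genes were called lower and 9.0% higher. The difference from all genes was not tested. Cd36, Cidec, Lep and Klf15 were below the filter, and Lpl differed by 0.12 and 0.13 and Scd1 by 0.08 and -0.28. Cebpa, a master factor of fat cell formation, had 6.34 with MAL and 7.66 in the control, and 5.99 with MAL plus knockdown and 7.19 with the knockdown alone. Cebpd was lower (-1.32 and -1.44), Fasn, which makes fatty acids, was lower (-1.07 and -1.25), and Dlk1, a marker of fat precursors, was lower (-2.63 and -1.44). Pparg, the nuclear receptor at the centre of fat formation, was lower (-0.32 and -0.59). Zfp423, a factor of fat precursors, had 3.82 with MAL and 7.98 in the control, but 6.92 with MAL plus knockdown and 7.86 with the knockdown alone.

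Proliferation genes were lower with few exceptions in sign. Of 33 tested S phase and mitosis genes, 0 were called, 8 were lower and 0 higher by at least 1 in both pairs, and 27 were lower and 1 higher in both. The median was -0.66, and after quantile normalisation 16 were called lower and 1 higher, where 7.34% of all genes were called lower and 9.0% higher. Over all genes 1.94% were lower by at least 1 in both pairs, and 39.2% were lower and 31.3% higher in both. Ccne2, the cyclin E2 of S phase entry, had 4.37 with MAL and 6.52 in the control, and 3.97 with MAL plus knockdown and 6.28 with the knockdown alone. Cdc6, which loads the replicative helicase, was lower (-1.41 and -1.81), Aurkb, a mitotic kinase, was lower (-1.37 and -1.57), and Rrm2, of deoxynucleotide synthesis, was lower (-1.76 and -1.28). Ccnd2, a D-type cyclin, was the member higher in both, by 0.58 and 0.90. Mki67 was lower (-0.93 and -0.27).

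**Figure D4:**
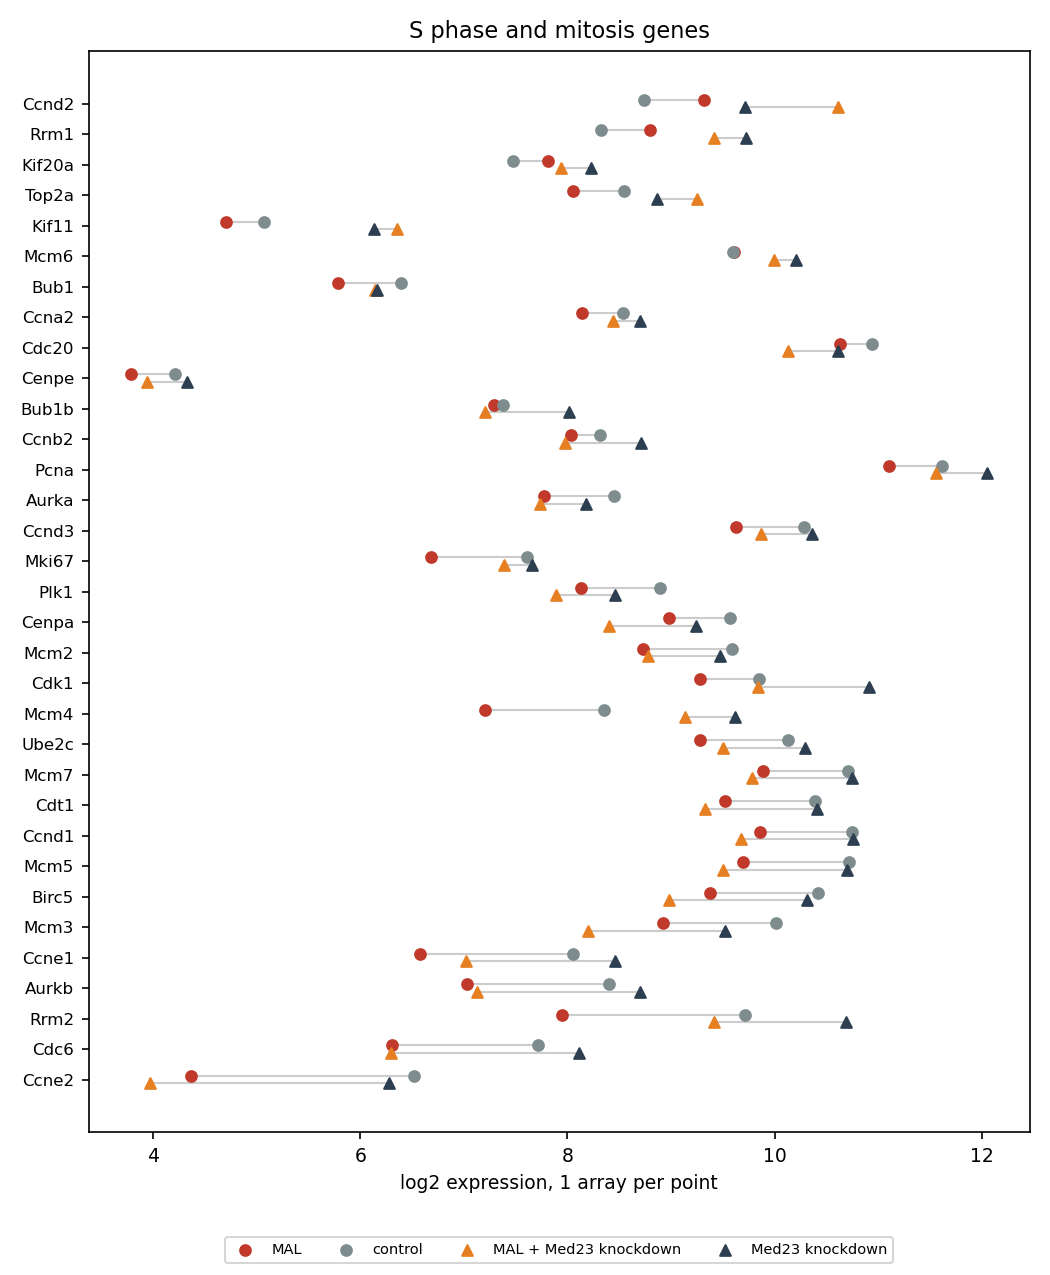
Log2 expression of the 33 tested S phase and mitosis genes, 1 array per point, with MAL and control joined by a line and MAL plus Med23 knockdown and Med23 knockdown joined by another. In 27 genes both MAL arrays lie left of their partners, while Ccnd2 lies right in both.

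Matrix and signalling lists also had medians below that of all genes, with 0 members called in each. Over all genes 1.94% were lower and 1.85% higher by at least 1 in both pairs, and 39.2% were lower and 31.3% higher in both. Of 29 extracellular matrix genes 3 were lower and 1 higher by at least 1 in both pairs (median -0.34), and 19 were lower and 3 higher in both. The type VI collagens Col6a1 (-1.12 and -1.15) and Col6a2 (-1.05 and -1.08) and Fbln2 (-1.34 and -1.88) were the 3 lower ones and Col12a1 the higher one (1.26 and 1.10), while Col1a2 differed by -0.11 and -0.12. Of 15 matrix proteases and inhibitors, with a median of -0.26, Mmp9 and Mmp19 were lower and Adamts5 higher by at least 1 in both pairs. Of 19 TGF-beta response genes (median -0.43), Tgfbi and Ltbp2 were lower and Skil, a repressor of Smad signalling, higher by 1.60 and 1.56. Of 20 growth factors and receptors (median -0.23), Igf1 and Igfbp3 were lower by at least 1 in both. Igf1 was lower (-2.33 and -1.98) on its brightest probe set, and 3 others gave -3.16 to -3.39 in the first pair and -0.90 to -0.94 in the second.

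The chemokine and cytokine list had the lowest median of these lists, at -0.95 over 17 genes. It also holds genes of other kinds, such as Nfkbia, Ptgs2 and Lcn2. Of the 17 genes, 4 were lower and 0 higher by at least 1 in both pairs, and the pair medians were -1.23 and -0.28. By at least 1 in both pairs, 1.94% of all genes were lower and 1.85% higher. Lcn2, an iron-carrier binding protein, had 2.84 with MAL and 8.17 in the control, and 3.64 with MAL plus knockdown and 5.73 with the knockdown alone. Cxcl5, a neutrophil attractant, was lower (-5.35 and -1.91), Cxcl1 was lower (-2.82 and -1.5), and Cxcl12 was lower (-1.64 and -1.08). Ccl2 was lower (-3.32 and -0.43), and Ccl7 differed by -2.38 and 0.40. Cholesterol synthesis genes (18 tested, median -0.41) had pair medians of 0.15 and -0.80, and the difference between the pairs was not tested over the list. Dhcr7, of the last step of cholesterol synthesis, was the 1 member lower by at least 1 in both (-1.15 and -1.67), and Mvd differed by -0.78 and -1.77. Among 24 interferon-stimulated genes, with a median of -0.06, 8 were higher and 7 lower in both pairs, beside 31.3% and 39.2% of all genes. The immunoproteasome genes Psmb8 and Psmb9 were lower by at least 1 in both pairs. Ifit1 was higher by 0.98 and 1.81, and Usp18 by 1.17 and 0.85. Of 18 Notch, Wnt and Bmp genes (median -0.09), 5 were higher and 8 lower in both pairs. Notch1 (-1.93 and -1.24) and Sfrp2 (-4.65 and -1.28) were the 2 members lower by at least 1 in both. Hes1 was higher by 0.73 and 0.66, Hey2 by 0.71 and 1.05, and Jag1 by 0.70 and 0.49.

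**Figure D5:**
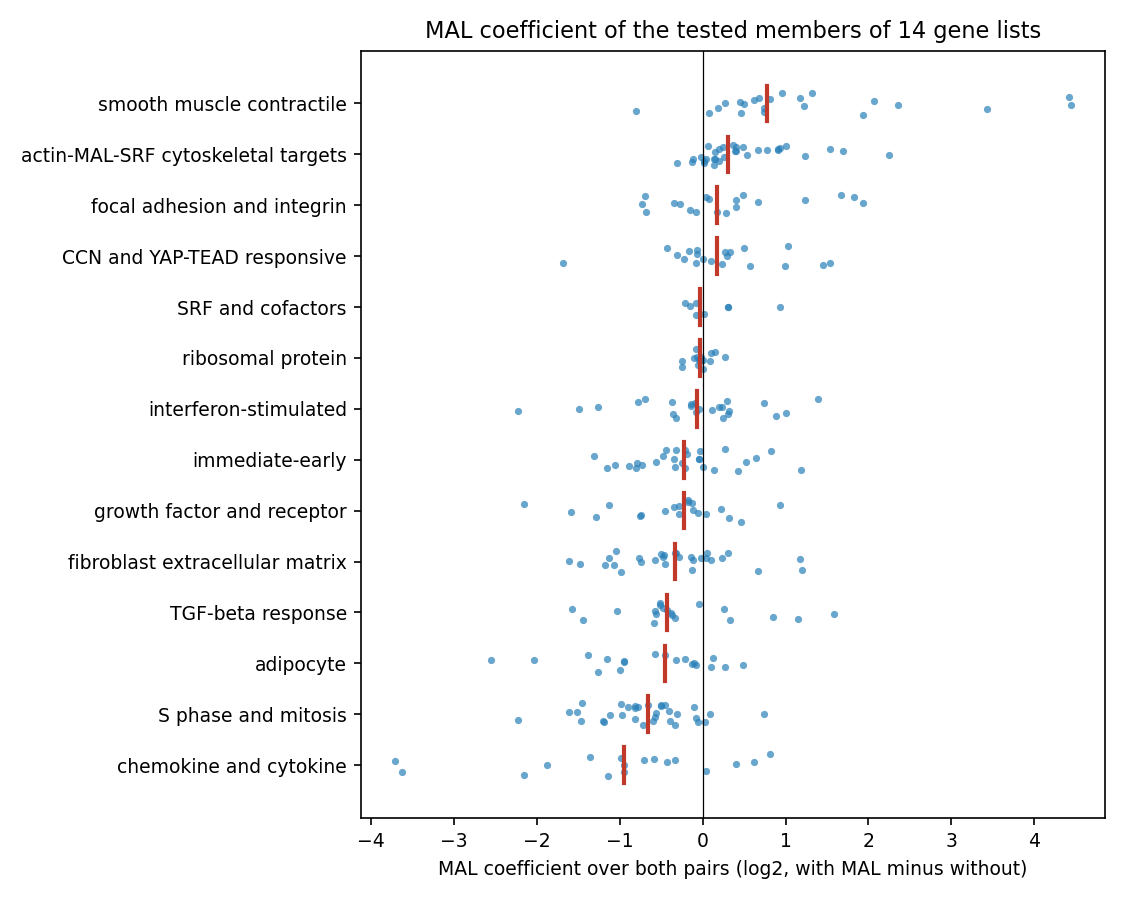
MAL coefficient (log2, with MAL minus without, over both pairs) of each tested member of 14 gene lists, with a red bar at the list's median. The medians run from 0.78 for smooth muscle contractile genes to -0.95 for chemokines and cytokines.

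Several lists stayed close to the median of all genes, with 0 members called. These were 16 ribosomal protein genes (median -0.03), 19 ER stress genes (-0.04), 13 p53 pathway genes (-0.05), 14 glycolysis and hypoxia genes (0.07) and 32 other Mediator subunits (0.04). Hif1a and Cdk8 were the members of these lists higher by at least 1 in both pairs, at 1.02 and 1.58 and at 1.49 and 1.23.

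Most fibroblast markers were above the array median on all 4 arrays. Of 12 fibroblast markers 11 were tested, with summed log2 levels of 120.0 with MAL and 123.1 in the control, and of 121.4 with MAL plus knockdown and 121.6 with the knockdown alone, and Fap was below the array median on every array. In both pairs 1 marker was higher, Prrx1 (1.03 and 1.36), and 5 were lower, among them Dcn (-2.47 and -0.50) and Thy1 (-0.63 and -0.71). Over all genes 31.3% were higher and 39.2% lower in both pairs. Of 15 skeletal muscle markers 7 were below the median on all 4 arrays, including Myod1, Myog and Myf5, the factors that define that lineage. Acta1 was the 1 skeletal marker called, and Tnni1, a slow-muscle troponin, was lower (-2.13 and -1.98). Of markers of other cells, 5 of 8 endothelial, 5 of 9 macrophage and 6 of 8 epithelial ones were below the median throughout, among them Pecam1, Ptprc and Cdh1. The same held for only 3 of 9 bone and cartilage and 1 of 8 neural markers. Others were well above the median, such as Sox9, between 9.21 and 10.36, and Cd14, between 6.78 and 8.92. Summed macrophage marker levels were 40.9 with MAL and 42.7 in the control, and 40.1 with MAL plus knockdown and 41.6 with the knockdown alone. Summed bone and cartilage markers were 50.0 with MAL and 52.2 in the control. They were 45.8 with MAL plus knockdown and 52.1 with the knockdown alone. Of the 6 tested, 5 were lower in both pairs, beside 39.2% of all genes. Neural marker sums were 39.5 with MAL and 37.0 in the control, and 40.4 with MAL plus knockdown and 38.9 with the knockdown alone. Endothelial sums lay between 26.6 and 28.4 and epithelial sums between 27.5 and 29.8. Summed skeletal muscle markers were 63.6 with MAL and 61.8 in the control, and 62.9 with MAL plus knockdown and 61.3 with the knockdown alone. Outside the fibroblast and skeletal muscle lists, the markers at 1 or more in both pairs were Cd14 (-1.11 and -1.31), Col2a1 (-1.34 and -1.91) and Map2. Map2, a neural marker, was higher by 1.80 and 1.98 on 1 of its 4 probe sets. The part of other cell types in the results was not tested.

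The serum arrays of the MEFs, which share no array with these pairs, gave a further description. Of the 225 genes higher by at least 1 in both MAL pairs that were above the MEF median, 15.6% were at least 0.5 higher after 30 min of serum in Med23 knockout MEFs and 11.1% in wild-type MEFs. Over all tested genes those shares were 5.87% in knockout and 7.90% in wild-type MEFs. At 90 min the shares were 27.1% in knockout and 18.7% in wild-type MEFs for the MAL-higher genes, and 11.4% in knockout and 10.2% in wild-type MEFs over all genes. Of the 209 MAL-lower genes above the MEF median, 5.26% in knockout and 16.3% in wild-type MEFs were at least 0.5 higher at 30 min, and 9.57% in knockout and 14.8% in wild-type MEFs at 90 min. A rise with serum was thus not limited to the MAL-higher genes. At least 0.5 lower at 90 min were 17.8% in knockout and 16.0% in wild-type MEFs of the MAL-higher genes, 19.6% in knockout and 26.3% in wild-type MEFs of the MAL-lower genes, and 19.2% in knockout and 22.9% in wild-type MEFs of all genes. These single arrays allow no test of a difference between the shares.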

How the data were processed

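Total RNA of each culture was hybridised, after biotin labelling, to an Affymetrix mouse array. The deposited values were log2 expression values, 1 for each of 45101 probe sets and array. RMA and MAS5 are named per the submitters' processing notes, without roles or versions, and the sources used here do not say which tool gave these values or if both cell lines were normalised together. The log2 scale was read from the range of the deposited values, which are rounded to 2 decimals.

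Of the probe sets, 64 were controls, 34945 had 1 gene symbol, 932 had several and 9160 had none; 34741 symbols were updated through Entrez identifiers (RefSeq, GRCm38.p6). Each gene was represented by its brightest probe set, by the mean over all 10 arrays, MEF arrays included. The MAL coefficient came from limma 3.58.1 (lmFit, eBayes) in R 4.3.3, with the knockdown as an additive term, 1 residual and 3.83 prior degrees of freedom, Benjamini-Hochberg adjustment over 12440 genes and a threshold of 0.05. The script was tested on simulated data. The difference of the MAL effect between knockdown states came from a fit over all 10 arrays (2 residual degrees of freedom, all from MEFs). The residual of the main model holds noise and any interaction. The SEs and p-values combine each gene's spread between pairs of single arrays with a prior spread taken from all tested genes.

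Up to 12 genes per direction were named: those called, by coefficient, then those with the largest smaller-of-2 pair difference and a mean above the median. Clone and predicted names were skipped. The MAL contrast, these members and 29 gene lists were chosen with earlier results of these data known, and 6 further lists were chosen after the values were seen. 1 of the 29 lists is not reported here. The rule that raises levels below an array's median to that median for an "at least" fold, and the look at other probe sets, were also chosen after the values were seen. Precision is limited by the number of arrays, which have no counting depth. Alternatives were quantile normalisation, median centring, other filters, the mean of probe sets, no knockdown term, a trended prior, a 10-array fit and leaving out each pair.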

Additional observations from a re-analysis of the deposited data

Results flagged for a closer look

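Probe sets without a single gene name were outside all comparisons above. Of 3166 such probe sets above the filter, 21 (0.663%) were higher with MAL by at least 1 in both pairs and 24 (0.758%) were lower, beside 1.85% and 1.94% of named genes. No gene was assigned to them, and they were not tested.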

How the results depend on the processing

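The fit had 1 residual degree of freedom, and the number of genes called changed with most settings. Against 6 genes higher and 2 lower, limma called 0 and 0 after median centring (lowest adjusted p = 0.125; 3321 genes at an unadjusted p under 0.05), 0 and 0 without a filter (0.119; 3826) and 0 and 0 with no replicate block, that is, without the knockdown term that pairs the arrays (0.0708; 1035). It called 5 and 1 with a filter on the mean, where Acta1 and Adh1 were lost (highest adjusted p = 0.0561), 249 and 338 with the mean of probe sets, 268 and 274 with a trended prior, 1120 and 913 after quantile normalisation and 1298 and 1052 over all 10 arrays. Leaving out a pair, in a fit that assumes 10T1/2 arrays vary like MEF arrays, gave 312 to 991 higher and 275 to 387 lower, and all 8 genes stayed called (adjusted p from 0.00463 to 0.041). The cause of these shifts was not tested, but values rounded to 2 decimals left 107 genes with exactly equal pair differences (prior degrees of freedom 3.83), against 25 (14.96) after quantile normalisation. Counts of genes at least 1 apart in both pairs were 205 higher and 249 lower after quantile normalisation and 209 and 238 after median centring. The difference between knockdown states called 0 genes in each of 3 settings (limma; 1188 at an unadjusted p under 0.05 after quantile normalisation and 1809 without a filter). Omd changed sign: its coefficient was -0.22 over both pairs, 1.03 without the knockdown pair (adjusted p = 0.0464) and -1.47 without the control pair. The 8 genes kept their direction under every alternative. That is a weak check, since the other filters, the trended prior, the 10-array fit and leaving out the knockdown term do not change the coefficient.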

Other observations

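The 6 lists chosen after the values were seen describe gene groups around the largest differences and carry no test. By at least 1 in both pairs, 1.85% of all genes were higher and 1.94% lower. Of 16 tested acute-phase, complement and antiprotease genes, 1 was called lower (Slpi), 9 were lower and 0 higher by at least 1 in both pairs, and the median coefficient was -2.36. Clu (clusterin) was lower (-4.25 and -2.09) in the 2 pairs and C1ra, a complement protease, was lower (-2.73 and -1.82), whereas Cp (ceruloplasmin) differed by -2.54 and 0.02. Of 15 antigen processing genes 5 were lower by at least 1 in both pairs (median -0.68), among them Cd74, the class II chaperone (-2.48 and -2.09). Of 10 small leucine-rich proteoglycans 2 were lower (Fmod and Prelp, median -0.87).

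Of 8 genes around integrin-linked kinase, 4 were higher and 1 lower by at least 1 in both pairs (median 0.71). Fermt2 (kindlin 2, an integrin activator) was higher by 1.97 and 2.22 and Rsu1 by 1.23 and 1.04, while Parvb was lower (-1.18 and -1.21). Of 7 caveola genes 2 were higher, Cavin2 and Cav1 (caveolin 1, by 1.48 and 2.25), and the median was -0.11. Of 21 striated muscle Z-disc and thin filament genes, 7 were higher and 3 lower (median 0.16). Ldb3, a Z-disc scaffold, was higher by 1.86 and 2.26 and Nexn by 1.83 and 2.43, and Actn3 was lower (-2.07 and -1.93). Myom1 had 3.27 with MAL and 3.05 in the control, but 7.0 with MAL plus knockdown and 3.32 with the knockdown alone.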
